A study of Homo sapiens with 3 samples.

Results

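The transcripts of the proteasome were followed in stratified cultures of iHCE, a line of human corneal epithelium immortalized with SV40. Genes were taken by symbol, as those whose name begins with PSMA, PSMB, PSMC, PSMD, PSME, PSMF or PSMG followed by a number, from every probe set that the platform annotation ties to a single gene. This gave 65 probe sets for 41 genes, out of 19071 single-gene probe sets for 11963 genes. The iHCE cells carry the large T antigen of SV40 and were used at passages 22 to 23. All cultures grew on collagen-coated filters in medium with serum, insulin, cholera toxin, EGF and DMSO, with ascorbic acid added once the apical medium had been removed. RNA from 3 independent replicate cultures, called cultures 1, 2 and 3, was hybridized to Affymetrix expression arrays with 1 array for each culture. The cultures had electrical resistances of 489, 439 and 468 Ω · cm2. There was 1 group and no untreated or tissue sample was analysed here, so the values describe this line in air-lifted culture. All levels are log2 values computed by the authors with RMA, and a difference of 1 is a doubling.

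The proteasome degrades proteins tagged with ubiquitin. Its core is a barrel of alpha rings, which gate the entry, around beta rings, which hold the catalytic sites, and a cap of ATPase and non-ATPase subunits binds, unfolds and feeds in the substrate. Under interferon the catalytic subunits *PSMB5*, *PSMB6* and *PSMB7* are replaced in newly built cores by *PSMB8*, *PSMB9* and *PSMB10*, which gives the immunoproteasome, and *PSME1* and *PSME2* form the PA28 activator. Both changes are known for the supply of peptides to class I histocompatibility molecules, and leukocytes carry immunoproteasomes without stimulation.

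The start regions of the immunoproteasome genes are shown because interferon is known to act on these genes through elements there. Sequences are from RefSeq on GRCh38.p14 and run 5′ to 3′ on the strand of the gene, from 250 bases before to 50 bases after an annotated start. Capitals mark matches on either strand to the core of the interferon-stimulated response element, which is GAAA and a further GAAA with 2 free bases between them, or to the core of the gamma-activated sequence, TTCNNNGAA.
*PSMB8*, chr6:32843998-32844297, minus strand: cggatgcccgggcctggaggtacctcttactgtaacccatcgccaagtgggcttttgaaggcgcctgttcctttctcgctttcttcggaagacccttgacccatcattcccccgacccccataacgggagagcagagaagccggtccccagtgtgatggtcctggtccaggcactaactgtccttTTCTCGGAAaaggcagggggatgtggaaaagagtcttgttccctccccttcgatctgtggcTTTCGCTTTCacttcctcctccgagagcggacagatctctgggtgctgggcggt
*PSMB10*, chr16:67936801-67937100, minus strand: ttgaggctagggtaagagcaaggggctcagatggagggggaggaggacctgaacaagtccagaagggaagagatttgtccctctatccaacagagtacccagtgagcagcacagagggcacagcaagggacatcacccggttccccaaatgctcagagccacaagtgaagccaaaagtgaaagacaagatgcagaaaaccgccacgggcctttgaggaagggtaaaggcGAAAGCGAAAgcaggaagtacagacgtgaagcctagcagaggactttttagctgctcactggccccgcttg
*PSME1*, chr14:24135944-24136243, plus strand: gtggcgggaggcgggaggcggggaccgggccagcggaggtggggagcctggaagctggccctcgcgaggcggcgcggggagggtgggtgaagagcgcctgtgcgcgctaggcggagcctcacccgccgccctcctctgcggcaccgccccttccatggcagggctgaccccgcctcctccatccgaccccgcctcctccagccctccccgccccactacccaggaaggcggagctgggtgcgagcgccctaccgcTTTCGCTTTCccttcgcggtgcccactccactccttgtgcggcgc
*PSMB9*, chr6:32853942-32854241, plus strand: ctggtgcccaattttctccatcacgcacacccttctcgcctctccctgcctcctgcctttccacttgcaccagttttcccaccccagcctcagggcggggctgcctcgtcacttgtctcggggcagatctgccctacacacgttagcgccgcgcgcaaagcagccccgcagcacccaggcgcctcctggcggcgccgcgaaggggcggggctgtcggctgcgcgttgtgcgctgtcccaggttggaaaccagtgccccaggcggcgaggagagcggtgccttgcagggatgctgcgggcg

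The response element core lay in the printed windows of *PSMB8*, *PSMB10* and *PSME1*, in each case within 21 bases of the start. *PSMB8* held it at position -4 and a gamma-activated core at -65, which do not overlap. A further annotated window of *PSMB8* and the window of *PSMB9* held neither. Among the 41 genes 36 had windows in the sequence table, and those with the response element core were *PSMA4*, *PSMB4*, *PSMB8*, *PSMB10* and *PSME1*. Of the constitutive subunits 22 were in the table and 2 held it. Among all 35116 windows of the table the share was 3.57%. The gamma-activated core was present in 7 of the 36 genes, 5 of them constitutive, and in 7.66% of all windows. The antioxidant response element core TGACNNNGC, bound by the NFE2L1 family, occurred in 13 of the 36 genes against 13.3% of windows, and CCAAT in 19 of the 36 against 34.6%. A gene may have several windows, so a count of genes is not on the same footing as a share of windows. Of the 45 member windows, 5 held the response element core, 7 the gamma-activated core, 13 the antioxidant core and 21 CCAAT. All of these counts are descriptions. They do not show binding in these cells, and a window without a match says nothing about a factor.

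The transcripts of the immunoproteasome were present in all 3 cultures. *PSMB8*, which encodes the inducible chymotrypsin-like subunit, read 11.24, 11.15 and 11.06 in cultures 1, 2 and 3 (11.15 ± 0.09, mean ± SD, n = 3). *PSMB9*, the inducible caspase-like counterpart, read 11.46, 11.64 and 11.46 (11.52 ± 0.10, n = 3). *PSMB10*, the inducible trypsin-like subunit, read 10.63, 10.55 and 10.31 (10.50 ± 0.17, n = 3). Culture 3 was the lowest for *PSMB8*, *PSMB9* and *PSMB10*, although culture 3 minus culture 1 was only -0.0072 for *PSMB9*. *PSME1*, the alpha chain of PA28, read 12.21, 12.11 and 12.16 (12.16 ± 0.05, n = 3). Every one of these 4 genes rested on a single probe set. The only probe set for *PSME2* is annotated with a further gene, so no value is given for it.

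Background was set for each array at the 95th percentile of 61 genes of other tissues such as retina, liver, pancreas, muscle and brain, and a probe set had to pass it on all 3 arrays. The thresholds were 7.17, 7.20 and 7.24 in cultures 1, 2 and 3. At the probe set of highest mean all 41 proteasome genes were above background, against 43.2% of all genes. Of the 65 probe sets 57 were above background, against 34.8% of all single-gene probe sets. In limma, a one-sided test of whether the mean lay over the threshold, with Benjamini-Hochberg adjustment over all single-gene probe sets, passed 56 of the 65, against 33.4% of all. The adjusted p of this limma test was 1.2e-08 for *PSMB8*, 8.7e-09 for *PSMB9*, 4.3e-08 for *PSMB10* and 6.1e-09 for *PSME1*. By these tests the 4 immunoproteasome and PA28 genes and all 27 measured constitutive subunits were above background. Of the 61 panel genes 2 also passed the call on all 3 arrays, *SFTPB* at 7.48 and *MBP* at 8.93. *PSMD3*, at 7.45, lay under both, so the call does not establish its expression. Probe sets differ in affinity, so the height of one gene over another is not read as an amount, and the share of immunoproteasome in the cells cannot be taken from these values.

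**Figure D1:**
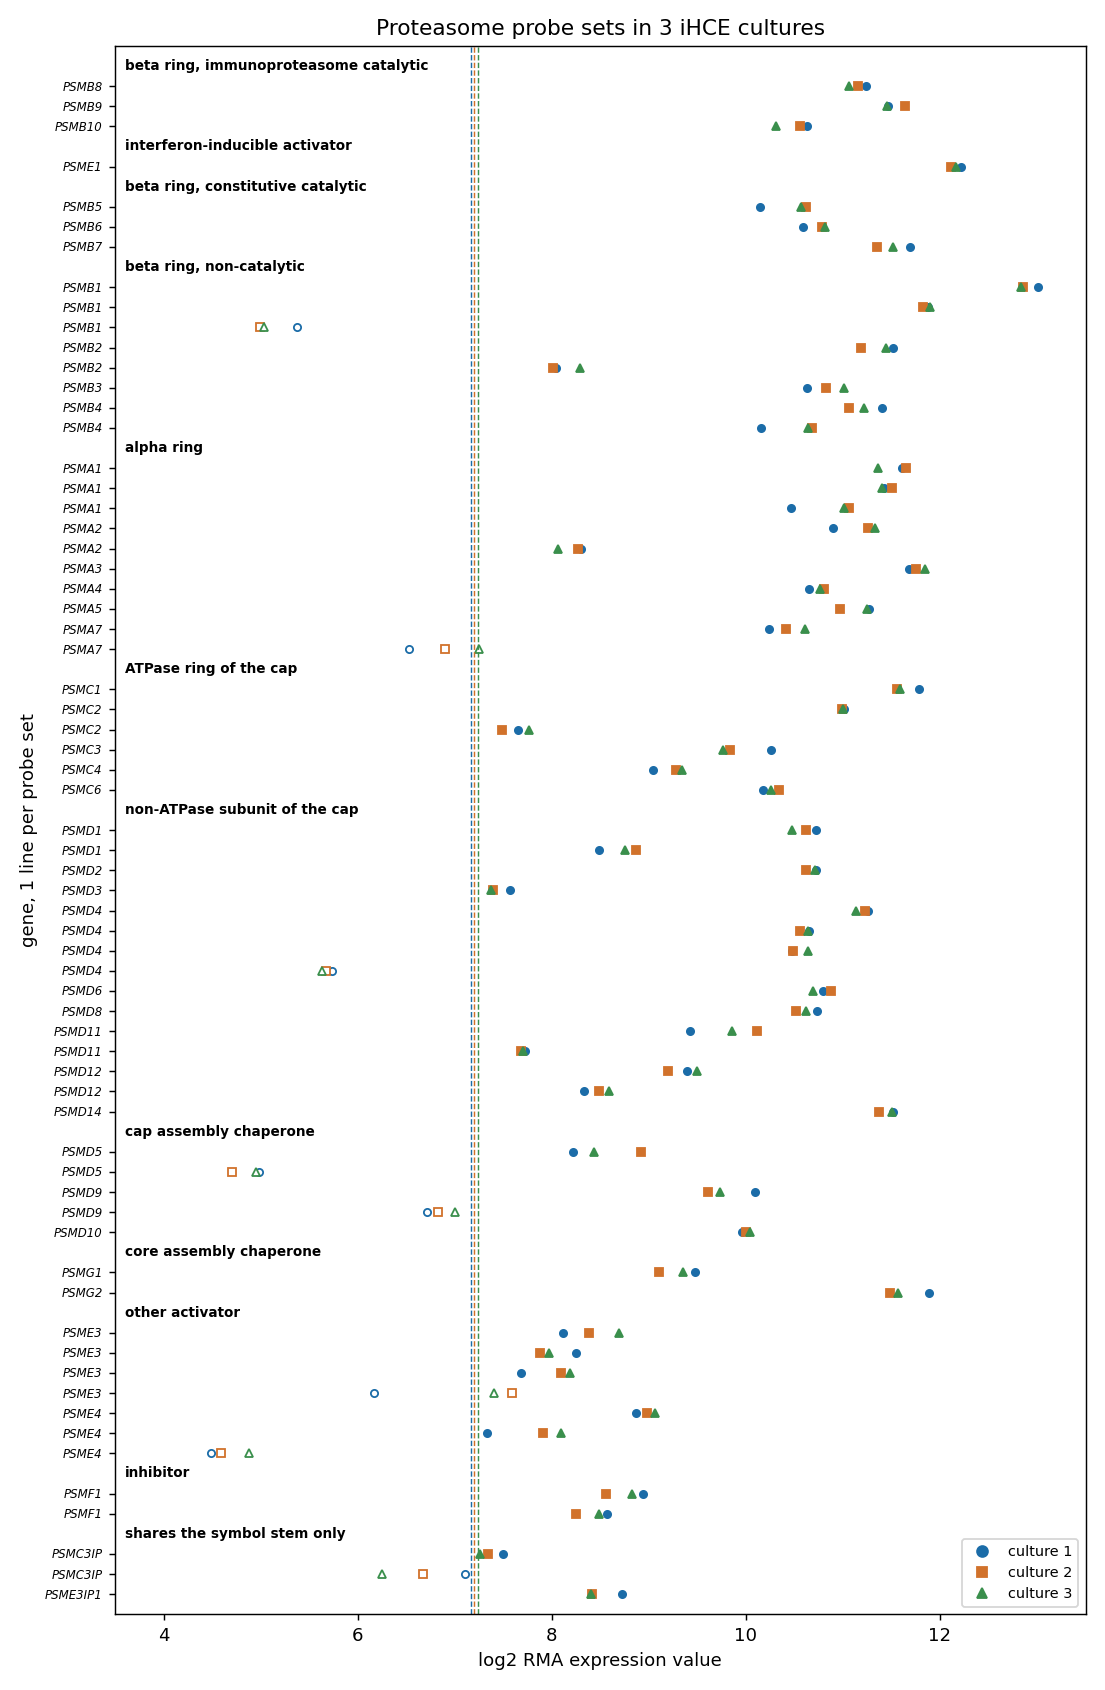
Log2 RMA values of the 65 proteasome probe sets in the 3 iHCE cultures, 1 line for each probe set, grouped by the role of the gene. Filled symbols mark probe sets above background on all 3 arrays (57 of 65) and open symbols the other 8, and dashed lines give the background threshold of each culture.

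Markers of immune cells were read beside the immunoproteasome genes, which such cells express. Of 17 measured leukocyte markers none was above background on any array. The highest was *CD14* at 6.92, 6.82 and 6.86, and *PTPRC*, the pan-leukocyte phosphatase gene, read 5.21, 5.11 and 5.04. The mean log2 value of the 17 markers was 5.64, 5.50 and 5.52 in cultures 1, 2 and 3. No keratocyte, melanocyte or endothelial marker was above background on all 3 arrays. All 6 simple epithelial markers were, led by *KRT18* at 12.58 ± 0.20 (n = 3), and none of 7 corneal epithelial markers was, with *KRT12*, the corneal keratin, at 5.26 ± 0.16 and *PAX6* at 6.83 ± 0.28. The cultures therefore carried epithelial markers but not those that define corneal epithelium.

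The constitutive catalytic subunits were measured by 1 probe set each. *PSMB5*, the chymotrypsin-like subunit, read 10.14, 10.62 and 10.57 in cultures 1, 2 and 3. *PSMB6*, the caspase-like subunit, read 10.59, 10.78 and 10.82, and *PSMB7*, the trypsin-like subunit, read 11.69, 11.35 and 11.52. Culture 1 was thus the lowest for *PSMB5* and *PSMB6* and the highest for *PSMB7*. Within an array the difference of an inducible subunit from the subunit it replaces depends on the affinity of the probes, so only its movement between arrays was read. That movement can also depend on the probe set, and each of these 6 genes rests on 1. *PSMB8* minus *PSMB5* was 1.09, 0.53 and 0.49, so that culture 3 lay 0.60 under culture 1, most of it from the lower *PSMB5* of culture 1. *PSMB9* minus *PSMB6* moved less, with 0.87, 0.86 and 0.64. *PSMB10* minus *PSMB7* was -1.06, -0.79 and -1.21. For *PSMB9* and *PSMB10* culture 3 had the lowest difference, as it had for *PSMB8*, while the highest lay in culture 1 for *PSMB8* and *PSMB9* and in culture 2 for *PSMB10*. Without culture 1 the range of *PSMB8* minus *PSMB5* was 0.04, without culture 3 that of *PSMB9* minus *PSMB6* was 0.02, and without culture 2 that of *PSMB10* minus *PSMB7* was 0.15. Each culture had 1 array, so differences between cultures have no replicate and no test was possible.

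**Figure D2:**
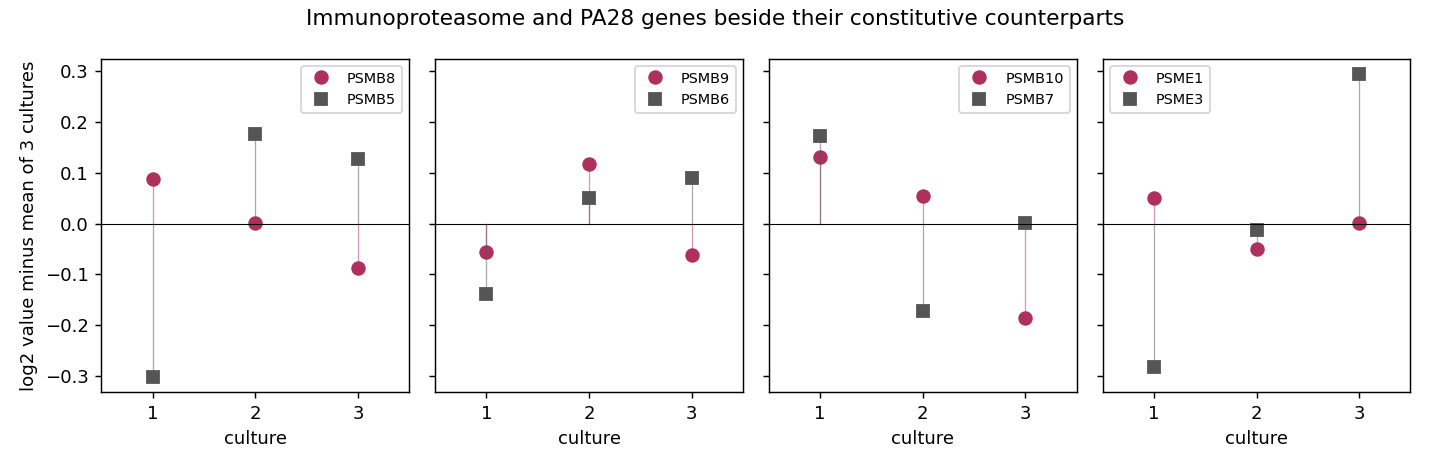
Deviation of each gene's log2 value from its own mean over the 3 cultures, each at the probe set of highest mean. Circles are the inducible genes *PSMB8*, *PSMB9*, *PSMB10* and *PSME1*. Squares are the constitutive subunits *PSMB5*, *PSMB6* and *PSMB7* and the activator *PSME3*, which is not a constitutive form of *PSME1*. All deviations of the inducible genes lie within 0.2 log2 units of 0, and the widest gaps are those of *PSMB5* in culture 1 and *PSME3* in cultures 1 and 3.

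The SD of the inducible genes over the cultures ran from 0.05 for *PSME1* to 0.17 for *PSMB10*, with a median of 0.09 over the 4 genes. Of all 5170 genes above background 1395 had an SD below that median. *PSMB8*, *PSMB9* and *PSME1* lay under the median SD of all genes above background, and *PSMB10* lay over it. The 27 constitutive subunits had a median SD of 0.13, from 0.01 for *PSMC2* to 0.35 for *PSMD11*, and all genes above background had one of 0.14. Of the 27 subunits 9 had an SD over that of *PSMB10* and 1 had an SD under that of *PSME1*. These spreads cover the culture and the array together.

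In the alpha ring, 6 genes were measured and all were above background at their brightest probe set. *PSMA4* had the smallest spread, with 10.65, 10.80 and 10.76 in cultures 1, 2 and 3, and *PSMA2* the widest, with 10.90, 11.26 and 11.34. The other probe set of *PSMA2*, also above background, went the other way with 8.30, 8.27 and 8.06. *PSMA3*, *PSMA5*, *PSMA7* and *PSMA1* had means of 11.76, 11.16, 10.42 and 11.54. *PSMA6* is named only by probe sets shared with a further gene and has no value. Of the non-catalytic beta subunits, *PSMB1* read 13.01, 12.86 and 12.83, and *PSMB3* read 10.63, 10.83 and 11.01. *PSMB2* and *PSMB4* had means of 11.38 and 11.23. At the brightest probe set culture 1 was the lowest for *PSMB3* and the highest for *PSMB1*, *PSMB2* and *PSMB4*. The other probe sets above background named culture 3 as the highest for *PSMB1* (11.88, 11.82 and 11.90) and *PSMB2* (8.04, 8.01 and 8.29) and culture 1 as the lowest for *PSMB4*.

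In the cap, all 5 measured ATPase genes and all 9 non-ATPase genes were above background. The ATPase gene *PSMC2* had the smallest spread of all members at its brightest probe set, with values from 10.99 to 11.01 (SD 0.01, n = 3). Its other probe set, also above background, read 7.65, 7.48 and 7.77 (SD 0.14, n = 3). *PSMC3*, of the same ring, was higher in culture 1, with 10.26, 9.84 and 9.76. The other ATPase genes, *PSMC1*, *PSMC4* and *PSMC6*, had SDs from 0.08 to 0.16. Among the non-ATPase subunits, *PSMD2*, a scaffold of the base, read 10.72, 10.62 and 10.72, and *PSMD14*, the deubiquitinase of the lid, read 11.52, 11.37 and 11.50. *PSMD4*, a ubiquitin receptor, had a mean of 11.21 ± 0.07 (n = 3). *PSMD11*, a lid subunit, read 9.43, 10.11 and 9.86, lowest in culture 1. *PSMD3* was the subunit nearest to background at 7.45 ± 0.11 (limma adjusted p = 0.047 for its probe set). *PSMC5*, *PSMD7* and *PSMD13* were not analysed here, as no probe set names them alone.

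The genes that build or regulate the particle were above background as well. *PSMD5*, *PSMD9* and *PSMD10* encode chaperones of the base of the cap. *PSMD10* (gankyrin) read 9.96, 10.00 and 10.04, whereas *PSMD5* had the widest spread of the 41 genes, with 8.22, 8.91 and 8.43. *PSMD9* was higher in culture 1, with 10.09, 9.61 and 9.73. The core assembly chaperones *PSMG1* and *PSMG2* had means of 9.31 ± 0.19 and 11.65 ± 0.21 (n = 3), both highest in culture 1. The inhibitor gene *PSMF1* (PI31) read 8.94, 8.56 and 8.83, and its other probe set gave the same order. *PSME4*, an activator linked to chromatin, read 8.87, 8.98 and 9.06. *PSMC3IP*, a gene of meiotic recombination, and *PSME3IP1* share the stem of the symbol without being proteasome subunits. The former lay at 7.36 ± 0.12 (limma adjusted p = 0.19 at its brightest probe set) and did not pass that test, and the latter at 8.51 ± 0.18 (n = 3).

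*PSME3*, the nuclear relative of PA28, showed how far the probe sets of a gene can part. Its brightest probe set read 8.12, 8.39 and 8.69 in cultures 1, 2 and 3, and another read 8.25, 7.88 and 7.97. Another still gave 7.69, 8.09 and 8.18. The dimmest read 6.17, 7.59 and 7.41, above background in cultures 2 and 3 only, and had the widest range of all 65 probe sets, 1.42. Culture 1 was the lowest by 3 of the 4 and the highest by the other. *PSME1* minus *PSME3*, at the brightest probe sets, moved from 4.10 in culture 1 to 3.73 and 3.47, and its range over the cultures was 0.63, or 0.26 without culture 1 and 0.35 after quantile normalization.

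Of the 41 genes 17 had several probe sets. In 9 of the 17 all probe sets were above background, and in 6 of the 17 they named the same culture as the highest. The latter count includes probe sets below background. No share over all genes with several probe sets was taken, so neither count is read as a trait of the members. For *PSMB4* the brighter probe set was highest in culture 1, with 11.41, 11.06 and 11.22, and the dimmer was lowest there, with 10.15, 10.68 and 10.64. The 3 probe sets of *PSMA1* differed likewise, as the dimmest read 0.60 more in culture 2 than in culture 1 and the brightest 0.04 more. For *PSMD11* the difference of culture 2 from culture 1 was 0.69 by the brighter probe set and -0.04 by the dimmer. The 8 probe sets not above background included additional ones of *PSMB1* at 5.14, of *PSMD4* at 5.68, of *PSMD5* at 4.88 and of *PSME4* at 4.65, whose genes were each above background by another probe set.

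Large differences between the cultures were few and mostly set culture 1 apart. Between cultures 1 and 2, 6 of the 65 probe sets were lower in culture 1 by at least 0.5 log2 units, against 5.88% of all single-gene probe sets, and 0 were higher, against 3.67%. Between cultures 1 and 3, 5 of the 65 were lower in culture 1, against 6.52% of all, and 1 was higher, against 3.97%. Between cultures 2 and 3, 0 of the 65 passed this size in either direction, against 1.52% lower and 1.41% higher in culture 2 among all. The shares were near those of all probe sets. The 9 probe sets that passed it in any pair belonged to *PSMA1*, *PSMA7*, *PSMB4*, *PSMD5*, *PSMD11*, *PSME3*, with 2, *PSME4* and *PSMC3IP*. No share of all probe sets was taken for any pair together. None of the 9 was of *PSMB8*, *PSMB9*, *PSMB10* or *PSME1*, which is not read as a trait of these 4 genes. Of the 9, 6 were above background on all 3 arrays.

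**Figure D3:**
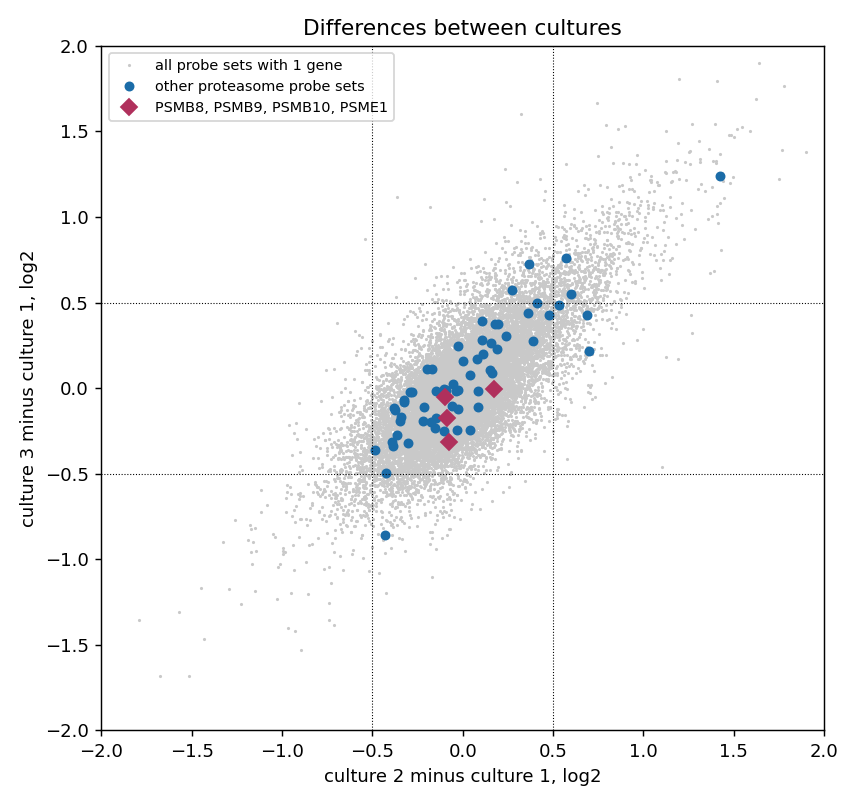
Differences in log2 value of culture 2 from culture 1 (horizontal) and of culture 3 from culture 1 (vertical) for all 19071 single-gene probe sets (grey), the proteasome probe sets (blue) and those of *PSMB8*, *PSMB9*, *PSMB10* and *PSME1* (diamonds), with dotted lines at 0.5 log2 units. The diamonds lie inside these lines, the farthest blue point at the upper right is the dimmest probe set of *PSME3*, both axes share the array of culture 1, and 2 grey points fall outside the axes.

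The order of the cultures was then set beside that of other interferon genes. As deposited, *PSMB8*, *PSMB9* and *PSMB10*, 3 of the 4, were lowest in culture 3, *PSMB9* by less than 0.01 log2 units, against 26.3% of all genes above background, and 3 of the 4 were highest in culture 1, against 39.8% of all. The median deviation of the 4 from their own means was 0.07, 0.03 and -0.08 in cultures 1, 2 and 3, and that of the 27 constitutive subunits 0.04, -0.01 and 0.02. All genes above background had medians of -0.001, -0.007 and 0.011. Of 23 interferon-stimulated effectors above background, out of 27 measured, 18 were lowest in culture 3. Their median deviations were 0.255, 0.058 and -0.226. *ISG15*, a ubiquitin-like modifier, read 12.51, 12.05 and 11.43, and *IFI35* read 10.35, 9.42 and 8.93. *BST2* (tetherin) went against this with 9.76, 11.17 and 10.72, lowest in culture 1. So did *IFIT3*, *OAS2*, *OAS3* and *TRIM21*, which were also lowest in culture 1. Of 12 class I loading genes above background 10 were lowest in culture 3, among them *B2M*, the light chain, with 13.46, 13.17 and 12.80. *TAP1*, the peptide transporter gene that lies between *PSMB8* and *PSMB9* on chromosome 6, was an exception with 9.49, 10.03 and 9.88, lowest in culture 1. The other was *PDIA3*, a disulfide isomerase of the loading complex, which had the widest range of the list with 8.79, 10.20 and 9.85. The background panel leaned likewise, as 35 of its 61 genes were lowest in culture 3, and its part in the other counts was not tested. After quantile normalization of the 3 arrays 2 of the 4 inducible genes were lowest in culture 3 and 0 of the 4 highest in culture 1, against 31.5% and 2241 of 5170 of all genes above background, while 19 of the 23 effectors, 8 of the 12 class I genes and 32 of the 61 panel genes were lowest in culture 3. With the mean over probe sets 3 of the 4 inducible genes were lowest in culture 3, against 25.1% of all genes above background. So were 18 of the 23 effectors, 7 of the 12 class I genes and 35 of the 61 panel genes. Centring the arrays also left 3 of the 4 lowest in culture 3, against 35.8% of all. The order of the inducible genes thus changed under quantile normalization only, and the lean of the effectors held in each setting. The class I count fell under both quantile normalization and the mean over probe sets.

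**Figure D4:**
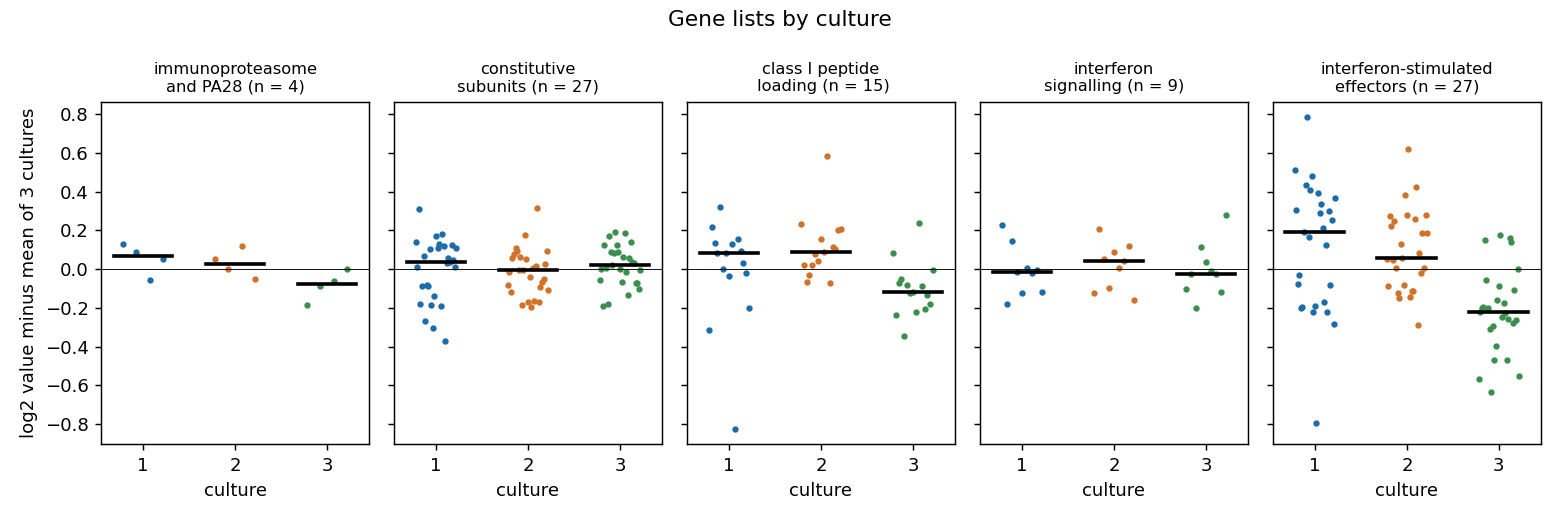
Deviation of each gene's log2 value from its own mean over the 3 cultures, for the genes measured in 5 lists (points, 1 for each gene at the probe set of highest mean), with the list median as a black bar. The medians of the interferon-stimulated effectors are 0.19, 0.06 and -0.22 in cultures 1, 2 and 3 over all 27 genes, and those of the 4 inducible genes are 0.07, 0.03 and -0.08.

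The wider pathway was measured from fixed lists. Of 13 measured partners of the proteasome without a PSM symbol 11 were above background. *POMP*, the maturation factor of the core, read 10.65, 10.28 and 10.39, and *ADRM1*, a ubiquitin receptor of the cap, read 8.59, 7.92 and 8.11. *UCHL5*, the deubiquitinase that docks on it, had the widest range of this list, with 7.88, 8.29 and 8.60. The exceptions were *UBQLN4* at 6.98 ± 0.10 and *AKIRIN2*, a nuclear import factor of proteasomes, at 5.12 ± 0.10 (n = 3). All 6 measured ubiquitin and p97 genes were above background, led by *UBB* at 13.86 ± 0.20. Of 9 regulators of proteasome genes 7 were above background. *NFE2L1*, which drives the recovery of proteasome genes after inhibition, read 10.35, 10.58 and 10.46, and *NFE2L2* read 10.08, 9.73 and 9.80. *NFE2L3* was not above background on any array, at 5.28 ± 0.24, and *NFYA*, a CCAAT-binding subunit, exceeded the threshold on 1 array. Of 9 interferon signalling genes 6 were above background, among them *IRF1*, a direct activator of *PSMB9*, with 9.12, 8.77 and 8.79, and the receptor gene *IFNGR1* with 9.01, 9.02 and 9.00. The genes *IRF2*, *JAK2* and *IFNAR1* were not, with means of 6.31, 5.22 and 6.48.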

How the data were processed

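RNA of 3 replicate iHCE cultures was measured on Affymetrix expression arrays, 1 per culture. According to the submitters' processing notes, the authors used RMA in R 2.8.0 and deposited log2 expression values of 22283 probe sets. RMA removes background and overall brightness differences and compresses low values. The study's methods import the iHCE and tissue arrays together and normalize over the whole set, but with probes regrouped by gene, whereas the deposited table keeps the manufacturer's probe sets. Whether this table came from a joint run is therefore not known here. Probe sets were named through the platform annotation, with symbols updated by Entrez number from RefSeq (GRCh38.p14): 19071 had 1 symbol, 1043 several and 2169 none or no entry. For 12 of the 19071 the older symbol was kept. A gene was represented by its probe set of highest mean, and every probe set of a member was kept beside it. The above-background call and limma 3.58.1 (R 4.3.3), fitted over all single-gene probe sets, were the tests used. Limma was also run on simulated rows, of which those without a signal lay well under the threshold. False calls close to the threshold were therefore not assessed, and the threshold was taken as exact. Spread is the SD over 3 cultures. Arrays carry no read depth, so their number limits precision.

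Differences between cultures were described at 0.5 log2 units. Alternatives were other thresholds, the mean over probe sets, leaving out probe sets ending in _x_at or _s_at, quantile normalization, centring, other sizes and leaving out each replicate. Members and lists were chosen with earlier results of these data known. Every member could be named, each role by its steadiest, widest and undetected genes, and other lists by their brightest gene, widest gene and exceptions. Departing from this, some further members and list genes were named after their values were seen, and some brightest or widest genes of other lists are not named. Promoter windows were searched for 4 motifs on both strands.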

Additional observations from a re-analysis of the deposited data

How the results depend on the processing

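Of 79 values recomputed under the alternatives 63 stayed within the tolerance and 16 moved. The tolerance was 1.5 times for counts, 1 SD between the cultures for differences between genes or lists, and 1 SD between probe sets for the median SD, so that a value within it can still differ by over 1.5 times. The counts above background stayed within 1.5 times under the other thresholds, from 38 to 57 of 65 probe sets and from 32 to 41 of 41 genes. With the highest panel value *PSMC3IP*, *PSMD3*, *PSMD5*, *PSMD12*, *PSME3*, *PSME3IP1*, *PSME4*, *PSMF1* and *PSMG1* were not above background, and *PSMB8*, *PSMB9*, *PSMB10* and *PSME1* were. Without _x_at and _s_at probe sets 26 of the remaining 30 probe sets and 25 of the remaining 27 genes were above background, which follows from the fewer probe sets, and *PSMB8* and *PSME3* were not left to compare. In that setting 2 probe sets differed by 0.5 log2 units between cultures 1 and 2 and 1 between cultures 1 and 3. At a size of 1 log2 unit the counts were 1 and 1, and at 0.3 they were 24, 21 and, between cultures 2 and 3, 5. Quantile normalization or centring gave 1 between cultures 2 and 3 at 0.5 log2 units. No share of all probe sets was taken beside the counts without _x_at and _s_at probe sets, at the other sizes or after these scalings. Those counts are therefore not read as a trait of the members. With the mean over probe sets the inducible genes lay 0.12 over the constitutive ones in culture 1, against 0.03. The median deviation of the inducible genes in culture 1 was 0.069 in both settings. That of the constitutive subunits went from 0.037 to -0.051. Why the probe sets of those subunits differ was not tested. Leaving out each replicate moved the range of *PSMB8* minus *PSMB5* to between 0.0414 and 0.60, that of *PSMB9* minus *PSMB6* to between 0.0157 and 0.23, that of *PSMB10* minus *PSMB7* to between 0.15 and 0.41 and that of *PSME1* minus *PSME3* to between 0.26 and 0.63. Differences between a named pair of cultures have no such alternative. Quantile normalization lowered the last of these from 0.63 to 0.35, and turned the difference of inducible from constitutive genes in culture 1 from 0.03 to -0.0016. The median SD of the 65 probe sets was 0.156. It fell to 0.0755 without culture 1, and was 0.139 without culture 2 and 0.133 without culture 3. Over all probe sets cultures 2 and 3 were also the most alike, with a Pearson r of 0.994. Cultures 1 and 2 had 0.988 and cultures 1 and 3 had 0.987. The fall is therefore not read as a trait of the members. No paired analysis was possible because there is 1 group.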
